A study of Mus musculus with 31 samples.

Results

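Interferon signalling begins at paired receptor chains. IFNGR1 and IFNGR2 bind interferon gamma, IFNAR1 and IFNAR2 bind the type I interferons, and the Janus kinases JAK1, JAK2 and TYK2 sit on their cytoplasmic tails and phosphorylate STAT transcription factors once the ligand is bound. JAK3 works instead with the common gamma chain of the interleukin-2 receptor family and is best known from lymphocytes. SOCS1 and SOCS3 are transcribed in response to STATs and bind back to the kinases or receptors as feedback inhibitors. The account below covers the 10 genes Ifngr1, Ifngr2, Ifnar1, Ifnar2, Jak1, Jak2, Jak3, Tyk2, Socs1 and Socs3, which were selected by symbol from a hippocampal RNA-seq table of 15648 genes, and all 10 were present with a single row each.

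The left hippocampus of 31 adult OT-I/Rag-/- mice was sequenced in bulk, 1 library per mouse, 2, 5, 8 or 28 days (d) after stereotaxic injection into dorsal CA1 of both hemispheres. The rAAV-OVA group received rAAV-hSyn-OVA-mCherry, in which the neuronal hSyn promoter drives ovalbumin (OVA) together with a red fluorescent marker, and the rAAV-control group received rAAV-hSyn-mCherry, the marker alone. Both groups carried the OT-I transgene, a T cell receptor for an OVA peptide on CD8+ T cells, and both lacked Rag1, so that no B cells and no T cells with receptors of their own rearrangement mature in them. OVA-reactive CD8+ T cells were thus present in both groups, while their antigen was in neurons of the rAAV-OVA group alone. Each vector was represented by 4 mice per day, except 3 rAAV-control mice at 8 d. Each mouse is a separate animal, and p-values rest on the spread between animals.

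Expression is given as CPM, the count relative to the library total after TMM scaling. Libraries held 19046977 to 57407902 counts, so the lowest member value, for Socs1, still rested on 14 counts and the lowest Jak1 value on 3448. A gene was called when edgeR's quasi-likelihood test gave a Benjamini-Hochberg FDR of 0.05 or less over all genes and the Log2FC was 0.66 or more in size. Except where another setting is named, Log2FC values are adjusted for 2 surrogate variables, which stand for variation among libraries that was estimated from all genes beside the groups. Fits of a single batch or a single day used no covariates. All mice at 5 and 8 d belonged to batch 1 of the labels, and at 2 and 28 d each group held 2 mice of each batch. Hippocampal and neuronal marker genes were detected in every library, with summed levels of at least 452.7 CPM over 5 hippocampal genes and 1937 CPM over 5 neuronal genes. Of the markers of other cells, 2 of 8 T cell genes, 7 of 7 monocyte and macrophage genes, 7 of 7 microglial genes, 1 of 4 natural killer cell genes and 1 of 4 neutrophil genes were in the table, and 0 of 3 B cell genes. Rag1 had 93 to 259 counts in each of the 31 mice. All groups carry the same genotype and a count over the whole gene does not show which part of it was transcribed, so these counts do not check the deletion.

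The promoters of the members are shown first, because STAT dimers are known to bind the palindrome TTCNNNGAA (gamma-activated site, GAS), and complexes of STATs with IRF9, as well as IRF1, bind the interferon-stimulated response element, whose core was searched as GAAANNGAAA and, for the other strand, TTTCNNTTTC. The GAS palindrome reads the same on both strands. RefSeq promoters of assembly GRCm38.p6, running from 250 bases before to 50 bases after the transcription start, were found for 10 of 10 members. Among all 32851 such windows of 300 bases, 8.3% held a GAS and 3.44% an ISRE core. Of the members, 3 held a GAS (Ifnar1, Ifnar2 and Socs3) and 1 held ISRE cores (Socs1). The Socs1 window held 2 ISRE cores that overlap, with first bases at positions -83 and -77 from the start. The 250 bases before the start are printed for the members with a motif that were called at 5, 8 and 28 d, with the motif in capitals.

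The Socs1 sequence lies on the minus strand at chr16:10785537-10785786, that of Socs3 on the minus strand at chr11:117969367-117969616 and that of Ifnar2 on the plus strand at chr16:91372533-91372782, all in GRCm38.p6.
Socs1: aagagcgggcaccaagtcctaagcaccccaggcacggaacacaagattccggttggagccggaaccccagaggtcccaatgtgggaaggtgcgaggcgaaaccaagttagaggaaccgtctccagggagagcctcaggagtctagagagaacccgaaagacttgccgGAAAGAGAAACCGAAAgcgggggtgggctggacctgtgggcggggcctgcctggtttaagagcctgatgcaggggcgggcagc
Socs3: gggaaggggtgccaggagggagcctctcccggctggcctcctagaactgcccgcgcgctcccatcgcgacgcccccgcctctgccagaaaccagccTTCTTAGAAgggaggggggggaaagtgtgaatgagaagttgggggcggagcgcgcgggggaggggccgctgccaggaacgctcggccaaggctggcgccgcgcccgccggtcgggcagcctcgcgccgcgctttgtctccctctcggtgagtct
Ifnar2: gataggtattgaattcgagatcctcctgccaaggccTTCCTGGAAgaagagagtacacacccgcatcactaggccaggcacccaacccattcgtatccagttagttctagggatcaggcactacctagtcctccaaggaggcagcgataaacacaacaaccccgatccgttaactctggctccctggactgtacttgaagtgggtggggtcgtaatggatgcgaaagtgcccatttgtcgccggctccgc

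The first base of the motif lies at position -154 in Socs3 and at position -214 in Ifnar2. In Ifnar1, which was not called on any day, the GAS begins at position -5. Jak2 and Jak3 were called on the same 3 days as Socs1, and neither motif was found in their windows. A match says only that these letters are present, and factor binding was not measured here.

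The inhibitors Socs1 and Socs3 carried the largest responses of the 10 genes at 5 and 8 d. At 5 d, Socs1 stood at 25.8, 14.8, 23.4 and 17.4 CPM in the rAAV-OVA mice and at 0.761, 1.64, 1.04 and 0.682 CPM in the rAAV-control mice. The lowest rAAV-OVA mouse was thus far above the highest control, and the ratio of the group means was 19.7. The Log2FC was 3.52 ± 0.473 (SE), with an edgeR FDR of 1.86e-05.

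Socs3 at 5 d was at 75.7, 32.7, 55.8 and 49.0 CPM in the rAAV-OVA mice. The controls were at 1.03, 3.84, 2.11 and 3.07 CPM. The groups did not overlap, their means differed 21.2-fold, and the Log2FC was 3.54 ± 0.582 with an edgeR FDR of 0.000127. In bulk tissue, more cells of a type and more RNA per cell cannot be told apart. The summed CPM of Cd8a and Lck, the T cell markers in the table, was 49.5 to 70.1 in rAAV-OVA mice at 5 d and 1.07 to 3.03 in controls. The 7 monocyte and macrophage markers summed to 233 to 382 CPM against 6.26 to 12.9 CPM, and the 7 microglial markers to 1095 to 1111 CPM against 503 to 788 CPM. The part of these cells in the SOCS values was not tested.

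At 8 d both inhibitors remained called. Socs1 was at 18.3, 8.41, 12.1 and 20.2 CPM in rAAV-OVA mice and at 0.961, 5.60 and 1.67 CPM in controls, with a Log2FC of 2.67 ± 0.487 and an edgeR FDR of 0.000749. Socs3 was at 28.3, 12.7, 23 and 26 CPM against 1.63, 8.11 and 1.67 CPM, with a Log2FC of 2.76 ± 0.613 and an edgeR FDR of 0.00342. The groups did not overlap for either gene. The T cell markers summed to 75.5 to 229 CPM in rAAV-OVA mice and 2.19 to 16 CPM in controls at 8 d, and the monocyte and macrophage markers to 122 to 402 against 11.1 to 70.8 CPM, and their part in the 8 d values was not tested. The highest control value of both genes came from mouse D720, in which Jak3, at 12.6 CPM, and Ifngr1, at 28.5 CPM, were also above the other 2 controls. D720 had 16 CPM of the T cell markers, where the median of the 3 controls was 2.38, and 1239 CPM of the microglial markers, where the median was 579. Without D720 the Log2FC was 3.10 for Socs1 and 3.36 for Socs3, and 7 members were called at 8 d, as with it. Without the control D722 the Socs3 call was lost (2.05, FDR of 0.115).

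At 28 d the levels in rAAV-OVA mice were lower than at 5 d, but still above the controls. Socs1 was at 7.56, 4.02, 7.33 and 1.14 CPM in rAAV-OVA mice and at 0.616, 0.602, 0.768 and 0.641 CPM in controls. Socs3 was at 13.8, 7.43, 21 and 2.28 CPM against 1.69, 1.60, 1.39 and 0.961 CPM. Both genes were called, Socs1 with a Log2FC of 1.79 ± 0.504 (edgeR FDR of 0.00917) and Socs3 with 1.93 ± 0.614 (edgeR FDR of 0.0188). Without covariates these values were 2.92 and 2.97, more than 1.5 times larger, and the means stood 7.63-fold and 7.88-fold apart. The Socs3 call was lost with limma voom (FDR of 0.0759), with the batch label and surrogate variables together (1.83, FDR of 0.0552) and without any 1 of the rAAV-OVA mice BEC-B542 and D661 and the control mouse D851. The T cell markers summed to 10.2 to 243 CPM in rAAV-OVA mice and 0.778 to 1.15 CPM in controls at 28 d. The monocyte and macrophage markers summed to 13.1 to 234 against 5.01 to 6.96 CPM, and the part of these cells in the 28 d values was not tested.

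**Figure D1:**
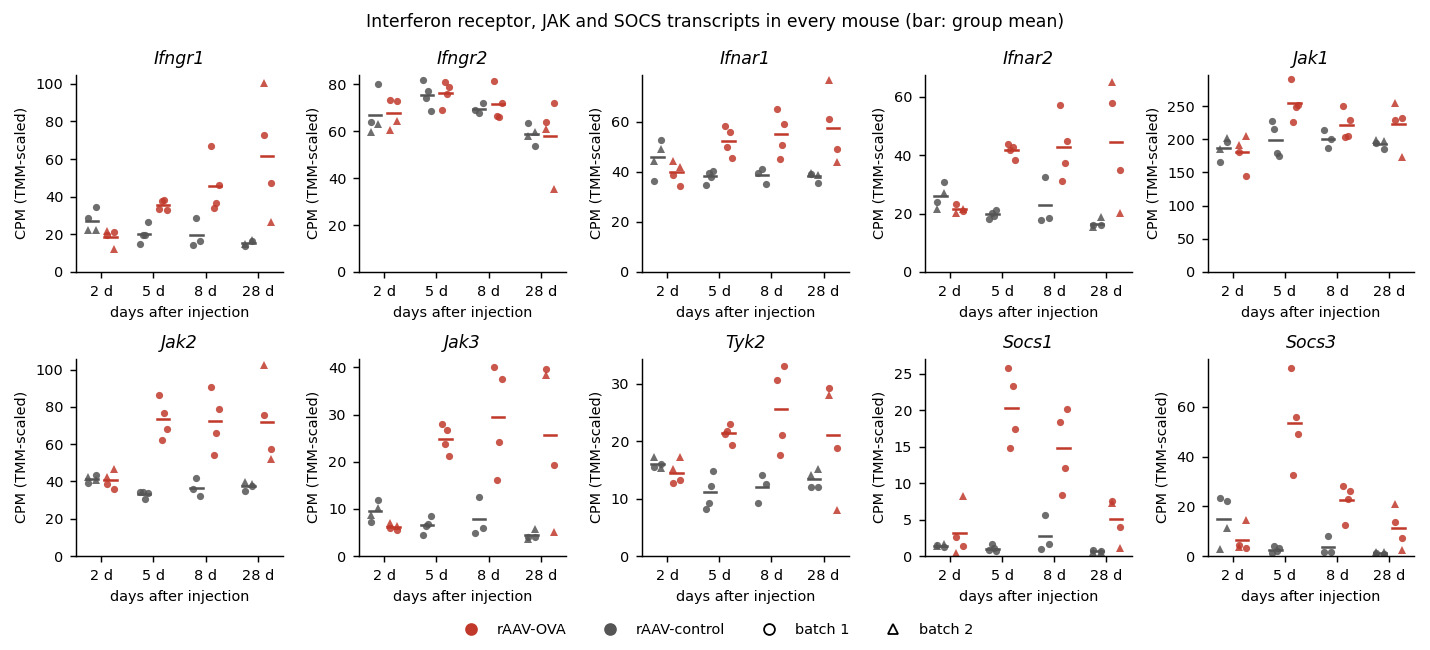
CPM (vertical axis, linear and starting at 0) of the 10 members in each mouse by day after injection, with rAAV-OVA in red, rAAV-control in grey, circles for batch 1, triangles for batch 2 and bars at the group means. Socs1 and Socs3 peak at 5 d in rAAV-OVA mice (means of 20.3 and 53.3 CPM), Ifngr1 has its highest mean at 28 d (61.7 CPM), and Ifngr2 means of both groups lie together on every day.

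The SOCS levels in rAAV-OVA mice at 28 d lay wholly below those at 5 d for Socs1 (1.14 to 7.56 against 14.8 to 25.8 CPM) and for Socs3 (2.28 to 21 against 32.7 to 75.7 CPM). No other member was lower at 28 d than at 5 d without overlap, and 6.97% of all genes were. The 28 d group includes mice of batch 2 and the 5 d group does not. When each day was set against its own controls, the response of Socs1 at 28 d differed from that at 5 d by a Log2FC of -1.73 ± 0.639 and that of Socs3 by -1.61 ± 0.767. Neither difference passed the limits (edgeR FDR of 0.0845 and 0.178), although DESeq2's Wald test gave Socs1 an FDR of 0.0442. The size moved when single mice were left out, with Socs1 at -1.11 without the rAAV-OVA mouse D701 of 8 d and Socs3 at -1.0 without the control D723 of 5 d.

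At 2 d the inhibitors had no common direction. Socs1 was at 2.60, 1.35, 0.455 and 8.22 CPM in rAAV-OVA mice and at 1.45, 1.23, 1.33 and 1.63 CPM in controls, so that the groups overlapped and a single mouse, BEC-B542, set the higher mean. Socs3 was at 4.42, 3.24, 3.57 and 14.5 CPM in rAAV-OVA mice, again highest in BEC-B542. The controls ranged widely, at 23.4 and 22.2 CPM in the batch 1 mice and at 2.90 and 11.5 CPM in the batch 2 mice. The Log2FC was 0.82 ± 0.438 for Socs1 and -1.37 ± 0.508 for Socs3, with edgeR FDR of 0.604 and 0.436. In batch 2 alone the Socs3 value was 0.34 in the opposite direction, and in batch 1 alone it was -2.57. Without D720, D844 and BEC-B542 the Socs1 value was 0.039.

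Socs3 in the control mice itself had a higher mean at 2 d than later. Its mean was 15 ± 9.68 CPM (SD, n = 4) at 2 d, 2.51 ± 1.21 CPM (n = 4) at 5 d, 3.8 ± 3.73 CPM (n = 3) at 8 d and 1.41 ± 0.327 CPM (n = 4) at 28 d. The Log2FC against 2 d was -2.49 ± 0.539 at 5 d (edgeR FDR of 0.0184) and -2.96 ± 0.596 at 28 d (FDR of 0.00629). At 8 d it was -2.53 ± 0.626, with an FDR of 0.0573. Socs3 was therefore the 1 member of 10 called within the controls at 5 d, where 1.55% of all genes were called, and at 28 d, where 2.79% were. At 8 d 0 of 10 members passed by edgeR and 0.492% of genes did, with 3 members at an unadjusted p under 0.05 and 1 member called by DESeq2's Wald test. The 5 d call was lost with limma voom (FDR of 0.0645), without covariates (FDR of 0.0852), with the batch label (FDR of 0.115) and without any 1 of the control mice D740, D743, D723 and D724. The 28 d call was lost with limma voom (FDR of 0.0904) and in batch 2 alone (-2.13). The batch 2 control BEC-B544 of 2 d, at 2.90 CPM, lay within the range of the 5 d controls (1.03 to 3.84 CPM). S100a8, the neutrophil marker in the table, was at 9.93 and 28.3 CPM in the control mice D740 and D743, which had the highest Socs3, and at 0.237 and 0.451 CPM in the other two, and its part in the Socs3 values was not tested.

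Among the receptors, the ligand-binding chain of the interferon gamma receptor, Ifngr1, was called at 8 and 28 d, and its partner Ifngr2 on no day. Ifngr1 was at 33.4, 37.5, 38.2 and 33.2 CPM in rAAV-OVA mice at 5 d and at 14.9, 19.6, 19.4 and 26.5 CPM in controls. At 8 d it was at 67.0, 34.0, 36.5 and 46.2 CPM against 14.2, 28.5 and 16.4 CPM. At 28 d it was at 72.6, 47.1, 101 and 26.6 CPM against 15.1, 16.8, 13.6 and 16.4 CPM. The groups did not overlap on any of these days, and the ratio of means was 1.77, 2.33 and 3.98.

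The Log2FC of Ifngr1 was 0.53 ± 0.289 at 5 d and was not called (edgeR FDR of 0.170). It was called at 8 d, with 1.13 ± 0.302 (FDR of 0.0119), and at 28 d, with 1.66 ± 0.298 (FDR of 0.000436). The 8 d call was lost without the rAAV-OVA mouse D700 or the control D722. The 5 d value was 0.82 without covariates, where it was called with an FDR of 0.0320. It was also called with the batch label (0.82, FDR of 0.0322), in batch 1 alone (0.83, FDR of 0.00854) and with mice of that day only (0.84, FDR of 0.00198). Without D720, D844 and BEC-B542 it was called as well (0.69, FDR of 0.0247), but not with limma voom (0.50, FDR of 0.184). Without single mice the 5 d value ran from 0.33 to 0.80, and it was called without D755 or D844. The response at 28 d differed from that at 5 d by 1.13 ± 0.377, which missed the limit in edgeR (FDR of 0.0579) and passed it in DESeq2's Wald test (FDR of 0.0273). At 2 d Ifngr1 lay lower in all 4 rAAV-OVA mice, at 12.3 to 21.9 CPM, than in the controls, at 22.1 to 34.4 CPM, with a Log2FC of -0.55 ± 0.271 and an FDR of 0.564. Without BEC-B542 the Log2FC was -0.27. At 2 d the 7 monocyte and macrophage markers summed to 22.4 to 28.3 CPM in rAAV-OVA mice and 30.7 to 76.3 CPM in controls, and the microglial markers to 561 to 647 CPM against 628 to 770 CPM. Their part in the 2 d values was not tested.

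Ifngr2, the signal-transducing chain that carries JAK2, was at 68.9 to 81.0 CPM in rAAV-OVA mice and at 68.4 to 81.8 CPM in controls at 5 d. At 8 d the ranges were 66.0 to 81.4 and 67.9 to 71.9 CPM. At 28 d they were 35.5 to 72.0 and 53.6 to 63.5 CPM. The groups overlapped on every day, also at 2 d (60.3 to 73.1 against 59.8 to 80.0 CPM). The Log2FC lay between -0.19 ± 0.123 at 28 d and -0.029 ± 0.113 at 2 d, and its sign changed without covariates at 2, 5 and 8 d and in batch 1 alone at 28 d.

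The type I receptor chains were both higher in rAAV-OVA mice from 5 d on, and 1 of them passed the limits. Ifnar2, the high-affinity chain, was at 43.9, 41.7, 42.8 and 38.5 CPM at 5 d against 18.3, 20.1, 19.3 and 21.3 CPM. At 8 d it was at 57.3, 31.2, 37.5 and 45.0 CPM against 17.7, 32.4 and 18.6 CPM, where control D720 lay above the lowest rAAV-OVA mouse. At 28 d it was at 57.8, 35.1, 65.2 and 20.3 CPM against 15.3, 18.8, 16.2 and 16.2 CPM. Its Log2FC was 0.74 ± 0.195 at 5 d, 0.85 ± 0.203 at 8 d and 1.02 ± 0.200 at 28 d, with edgeR FDR of 0.00598, 0.00565 and 0.000785. Without covariates it was 1.08, 0.90 and 1.42. The call at 5 d was lost with DESeq2 and ashr shrinkage (0.60, FDR of 0.00103, below the Log2FC limit), and without either of the control mice D696 and D851, which belong to other days, and the call at 8 d without the control D722.

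Ifnar1, the chain that carries TYK2, was at 45.4 to 58.5 CPM in rAAV-OVA mice and at 34.8 to 40.4 CPM in controls at 5 d. At 8 d the ranges were 45.3 to 65.0 and 35.1 to 41.1 CPM, and at 28 d 43.8 to 76.8 and 35.4 to 39.4 CPM. The groups did not overlap on these days. The Log2FC was 0.36 ± 0.134, 0.55 ± 0.140 and 0.48 ± 0.136 with edgeR FDR of 0.0431, 0.00873 and 0.00902, each within the FDR limit and short of the Log2FC limit. Without D844 the 28 d value was 0.76 (FDR of 0.00125) and was called.

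Ifnar2, Ifnar1 and Ifngr2 are near neighbours on the plus strand of chromosome 16 in GRCm38.p6. The start of Ifnar1 lies 112432 bases and that of Ifngr2 174276 bases beyond that of Ifnar2. Of these members, Ifnar2 was called on 3 days and, with all mice in the fit, Ifnar1 and Ifngr2 on none, although Ifnar1 was called at 28 d without D844. Other genes of the stretch were not placed.

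Because each receptor is built from both of its chains, the ratio of their counts was compared in every mouse. Ifngr2 counts were 2.58 to 5.49 times those of Ifngr1 in controls at 5 d and 1.99 to 2.37 times in rAAV-OVA mice. At 8 d the ratio was 2.38 to 4.85 in controls and 1.21 to 1.95 in rAAV-OVA mice. At 28 d it was 3.26 to 4.65 in controls and 0.608 to 1.53 in rAAV-OVA mice. The mean log2 ratio differed by -0.83, -1.20 and -1.89 at 5, 8 and 28 d, and by 0.55 in the other direction at 2 d.

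The groups did not overlap on these 3 later days. The exact two-sided permutation test gave p = 0.0286 at 5 and 28 d and p = 0.0571 at 8 and 2 d. The smallest value allowed is 0.0286 for 4 against 4 mice and 0.0571 for 4 against 3 mice, and at 2 d the groups overlapped. After Benjamini-Hochberg adjustment over the 8 tests of both receptors, each was 0.0762, and 0 of 8 passed 0.05. No ratio could pass after adjustment unless most of the 8 tests reached the smallest p of 0.0286, so no conclusion is drawn from this count.

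The direction of a ratio depends on which chain is divided by the other. From 5 d on, rAAV-OVA mice had on average more Ifngr1 relative to Ifngr2 and more Ifnar2 relative to Ifnar1 than controls. The ratio of Ifnar2 to Ifnar1 counts was thus higher in the mean on these days. At 5 d it was 0.751 to 0.846 in rAAV-OVA mice and 0.506 to 0.528 in controls, a difference of the mean log2 ratio of 0.63 (exact permutation p = 0.0286, adjusted 0.0762). At 8 d the difference was 0.42 and at 28 d 0.73, with overlap on both days (exact permutation p = 0.229 and 0.0571). At 2 d it was -0.068 (exact permutation p = 0.657). Mouse D844 had a ratio of 0.463 at 28 d, within the control range of 0.389 to 0.483, where the other 3 rAAV-OVA mice had 0.711 to 0.947.

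**Figure D2:**
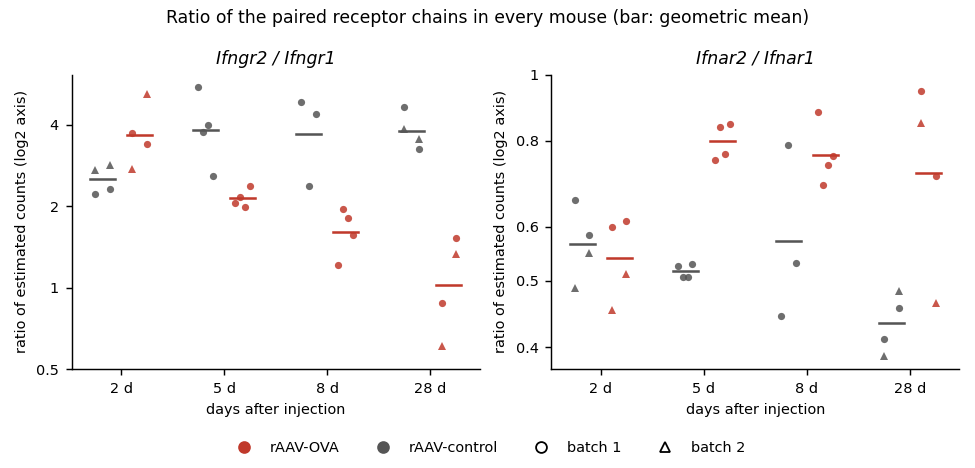
Ratio of estimated counts of the paired receptor chains (vertical axis, log2 scale) in each mouse by day after injection, with colours and symbols for vector and batch and bars at the geometric means. From 5 d on, the Ifngr2 to Ifngr1 ratio of every rAAV-OVA mouse is below that of every control of the same day, and the Ifnar2 to Ifnar1 ratio of all 4 rAAV-OVA mice is above that of the controls at 5 d.

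Of the kinases, Jak2 and Jak3 were called on the same 3 days. Jak3 was at 28.0, 23.7, 26.6 and 21.2 CPM in rAAV-OVA mice at 5 d and at 4.43, 6.47, 6.71 and 8.47 CPM in controls. At 8 d it was at 40.1, 16.1, 24.1 and 37.5 CPM against 4.85, 12.6 and 5.93 CPM. At 28 d it was at 39.6, 19.4, 38.3 and 5.10 CPM against 3.66, 5.65, 4.06 and 4.12 CPM. The groups were apart at 5 and 8 d, and at 28 d mouse D844 lay within the control range. The Log2FC was 1.37 ± 0.353, 1.90 ± 0.371 and 1.84 ± 0.371, with edgeR FDR of 0.00552, 0.00126 and 0.000932. Without D720, D844 and BEC-B542 it was 1.71, 2.40 and 2.55, and without covariates 1.92, 1.92 and 2.55.

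Jak2, which serves both the interferon gamma receptor and several cytokine receptors, was at 86.5, 62.3, 76.5 and 68.0 CPM at 5 d against 34.2, 34.6, 30.7 and 33.6 CPM. At 8 d it was at 90.7, 54.5, 65.9 and 79.1 CPM against 35.8, 42.0 and 32.4 CPM, and at 28 d at 75.5, 57.5, 102 and 52.3 CPM against 39.6, 38.9, 35 and 37.4 CPM. No rAAV-OVA mouse overlapped a control on these days, D844 included. The Log2FC was 0.98 ± 0.141, 1.00 ± 0.148 and 0.74 ± 0.141, with edgeR FDR of 3.70e-05, 0.000172 and 0.000625, and the mean level in rAAV-OVA mice lay between 71.9 and 73.3 CPM over the 3 days. Without the 8 d control D696 the 28 d value was 0.65 (FDR of 0.000426), just below the Log2FC limit.

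Tyk2, a kinase of the type I receptor and of the interleukin-12 family receptors, was at 19.3 to 23 CPM in rAAV-OVA mice and at 8.19 to 14.8 CPM in controls at 5 d. At 8 d the ranges were 17.7 to 33.2 and 9.31 to 14.2 CPM. The groups did not overlap on these days. At 28 d 3 rAAV-OVA mice were at 18.8 to 29.3 CPM, and D844, at 8.00 CPM, was below the controls at 12 to 15.1 CPM. Tyk2 was called at 8 d (Log2FC of 1.04 ± 0.257, edgeR FDR of 0.00697) and not at 5 d (0.62 ± 0.249, FDR of 0.0638) or 28 d (0.28 ± 0.255, FDR of 0.412). The 8 d call was lost without BEC-B541 (0.67, FDR of 0.0558) or D722 (0.90, FDR of 0.0733). Tyk2 was called at 5 d without covariates, with 0.93, and at 28 d without D844, with 0.89 (FDR of 0.0122), with the batch label as covariate, with 0.66 (FDR of 0.0470), and in batch 1 alone, with 1.01 (FDR of 0.0200). Without single mice its Log2FC ran from 0.42 to 0.86 at 5 d and from 0.042 to 0.89 at 28 d.

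Jak1, the kinase shared by both interferon receptors, was the member with the highest level per length of transcript. It was at 226 to 290 CPM in rAAV-OVA mice and at 174 to 228 CPM in controls at 5 d, at 204 to 251 and 186 to 214 CPM at 8 d, and at 173 to 255 and 185 to 198 CPM at 28 d. The groups overlapped on each day. The Log2FC was 0.27 ± 0.0972, 0.19 ± 0.102 and 0.089 ± 0.0990, with edgeR FDR of 0.0401, 0.179 and 0.509. Without single mice it ran from 0.18 to 0.35 at 5 d, from 0.083 to 0.25 at 8 d and from 0.043 to 0.36 at 28 d.

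**Figure D3:**
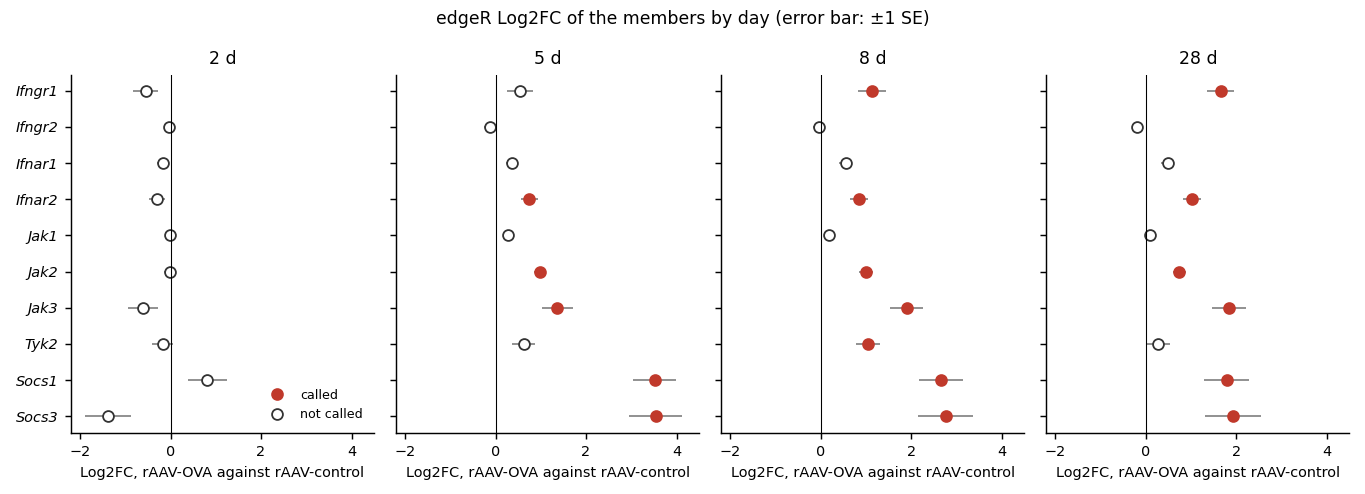
Log2FC of rAAV-OVA against rAAV-control (horizontal axis) for each member at 2, 5, 8 and 28 d from edgeR's model with 2 surrogate variables, with bars of 1 SE and filled points for called genes. Filled points number 0 at 2 d, 5 at 5 d, 7 at 8 d and 6 at 28 d, and Socs1 and Socs3 stand farthest to the right at 5 d (3.52 and 3.54).

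Counted together, 5 of 10 members were increased as calls at 5 d (Ifnar2, Jak2, Jak3, Socs1 and Socs3), where 9.63% of all genes were. At 8 d 7 were, Ifngr1 and Tyk2 being added, where 9.32% of all genes were. At 28 d 6 were, the same as at 8 d without Tyk2, where 12.8% were. Decreased calls numbered 0 of 10 members on each of these days, against 4.72%, 0.569% and 4.88% of all genes, and no member with a negative Log2FC had an unadjusted p under 0.05 on these days by edgeR. With the mice of 8 d fitted alone, 0 members and 0% of all genes were called as increased on that day, and the 7 members had Log2FC of 0.92 (Ifnar2) to 2.59 (Socs3) with FDR of 0.0588 to 0.0912. The median Log2FC of the 10 members was 0.68, 1.02 and 0.88, beside -0.012, -0.030 and 0.013 over all genes tested.

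By non-overlap of the mice alone, 8 of 10 members were higher in rAAV-OVA mice at 5 d, all except Ifngr2 and Jak1, and 21% of all genes were. At 8 d 7 members were and 14.4% of genes, and at 28 d 6 members were and 15% of genes. At 2 d 0 members were higher without overlap, against 2.22% of genes, and 2 were lower, Ifngr1 and Jak3, against 1.94%. Jak3 was at 5.47 to 6.95 CPM in rAAV-OVA mice and at 7.31 to 11.8 CPM in controls, with a Log2FC of -0.61 ± 0.330 and an edgeR FDR of 0.611, and without the 8 d control D696 it was -0.36.

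The other receptor and kinase genes overlapped between the groups at 2 d. Ifnar1 was at 34.2 to 44.5 CPM in rAAV-OVA mice and at 36.5 to 52.9 CPM in controls, and Ifnar2 at 20.2 to 23.3 and 21.7 to 30.8 CPM. Jak1 was at 145 to 205 and 166 to 202 CPM, Jak2 at 36.1 to 46.8 and 39 to 43.5 CPM, and Tyk2 at 12.6 to 17.2 and 15.4 to 17.3 CPM. Their Log2FC lay between -0.30 ± 0.184 for Ifnar2 and -0.0016 ± 0.132 for Jak2. Without single mice Ifnar2 ran from -0.41 to -0.15, Ifnar1 from -0.30 to -0.10 and Tyk2 from -0.20 to -0.032. With edgeR 0 of 10 members and 0% of all genes were called at 2 d. An unadjusted p under 0.05 was reached by 1 member, Socs3, and by 1416 genes, and DESeq2's Wald test and limma voom called 0 members as well. The members' median Log2FC was -0.17, beside 0.012 over all genes.

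The change in response from 2 d to 5 d was called for 5 members, where 14.4% of all genes were called in either direction. It was 4.91 ± 0.770 for Socs3, 2.70 ± 0.623 for Socs1, 1.97 ± 0.485 for Jak3, 1.04 ± 0.267 for Ifnar2 and 0.98 ± 0.191 for Jak2, with edgeR FDR between 0.000269 and 0.00791. Ifngr1, with 1.08 ± 0.398, missed the limit with an FDR of 0.0552. It passed with DESeq2's Wald test (FDR of 0.0263), limma voom (FDR of 0.0433), without covariates (1.33, FDR of 0.0219) and in 7 of the 31 fits without a single mouse. With the batch label and surrogate variables together it did not pass (FDR of 0.0746), and without single mice it ran from 0.69 to 1.35. The comparison rests on control values at 2 d that were high for Socs3.

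No member was called for a change in response by edgeR from 5 to 8 d (0.179% of genes called), from 5 to 28 d (6.13%) or from 8 to 28 d (0%). At an unadjusted p under 0.05 there were 0, 3 and 1 members, namely Ifngr1, Socs1 and Socs3 from 5 to 28 d and Tyk2 from 8 to 28 d. DESeq2's Wald test called 0 members from 5 to 8 d, 2 from 5 to 28 d (Ifngr1 and Socs1) and 0 from 8 to 28 d.

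Batch could be separated from vector at 28 d, where each batch held 2 mice of each group. The ratio of mean CPM of rAAV-OVA to control mice was 3.98 in both batches for Ifngr1, 1.83 and 1.97 for Jak2 in batches 1 and 2, and 2.87 and 2.51 for Ifnar2. It was 8.21 and 6.96 for Socs1, and 9.02 and 7.07 for Socs3. Jak3 had ratios of 7.21 and 4.67, and Tyk2 of 1.99 and 1.23. The batch 2 means average the mice D845 and D844, which were at 101 and 26.6 CPM for Ifngr1. In mean log2 CPM the differences in batches 1 and 2 were 1.96 and 1.69 for Ifngr1 and 0.86 and 0.90 for Jak2. They were 2.74 and 1.61 for Jak3 and 0.96 and 0.037 for Tyk2. The rAAV-OVA and control mice of batch 2 overlapped for Jak3 and Tyk2. In the batch 2 mice alone edgeR called 0 members at 28 d, where 0.364% of all genes were called as increased, and in the batch 1 mice alone 7, where 12.4% were. The 6 members that lost their call in batch 2 had Log2FC of 0.97 (Jak2) to 2.81 (Socs3) there, with FDR of 0.115 to 0.233.

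Markers of resident cells also moved with the groups. The 5 neuronal markers summed to 3473 to 3947 CPM in rAAV-OVA mice and 4991 to 6084 CPM in controls at 5 d, and to 3263 to 4163 against 4200 to 5696 CPM at 8 d, with 0 of 5 genes called by edgeR on these days and 4 and 3 genes at an unadjusted p under 0.05. The 5 astrocyte markers summed to 3940 to 4571 against 5127 to 6241 CPM at 5 d, where 1 of 5 decreased as a call. The 4 oligodendrocyte markers summed to 2424 to 3631 against 3876 to 6728 CPM at 5 d, where 3 of 4 decreased as calls. At 28 d the 4 endothelial markers summed to 158 to 273 against 110 to 143 CPM, and 3 of 4 increased as calls. On the same day the neuronal markers summed to 1937 to 4137 CPM against 4671 to 5586 CPM in controls, with medians of 2819 and 5340, and the 5 hippocampal markers to a median of 512 CPM against 903 CPM. In each of these lists 3 of 5 genes decreased as calls at 28 d, and the part of all these markers in the member values was not tested.

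Mouse D844 was the lowest rAAV-OVA mouse at 28 d for each of the 10 members. Its T cell markers summed to 10.2 CPM, where the median of its group was 179, its monocyte and macrophage markers to 13.1 CPM, where the median was 159, and its microglial markers to 526 CPM, where the median was 1188. All 3 sums were above those of the controls of that day, which reached 1.15, 6.96 and 443 CPM. With D720, D844 and BEC-B542 left out, a choice made after their values were seen, 0 members were called at 2 d, 7 at 5 d, 7 at 8 d and 7 at 28 d, where 0%, 11.2%, 12% and 11.8% of all genes were called as increased.

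Levels of different genes were compared per kilobase of the longest protein-coding transcript in GENCODE M21. In the 15 control mice Jak1 stood highest with 39.7 CPM per kilobase (33.9 to 46.4), followed by Ifngr2 with 18.2 (14.5 to 22.1). Ifnar1 followed with 10.3 (8.91 to 13.5), Ifngr1 with 9.76 (6.46 to 16.3), Jak2 with 7.42 (6.11 to 8.65) and Ifnar2 with 6.95 (5.03 to 10.6). Tyk2 had 2.74 (1.7 to 3.58), Socs3 2.27 (0.377 to 9.18), Jak3 1.74 (0.91 to 3.13) and Socs1 0.473 (0.207 to 1.93). Socs3 stood above Jak3 through the 2 d controls alone (5.87 against 2.37), and was below it at 5 d (0.984 against 1.62), 8 d (1.49 against 1.94) and 28 d (0.553 against 1.09). Neighbours in the order over all days overlapped in range, except that Jak1 was apart from Ifngr2, Ifngr2 from Ifnar1 and Ifnar2 from Tyk2.

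On this scale of level the order changed in rAAV-OVA mice. At 5 d the mean of Socs3 was 20.9 CPM per kilobase, next to Ifngr2 with 20.5 and below Jak1 with 51.8. At 28 d the mean of Ifngr1 was 29.2, above Ifngr2 with 15.7, and that of Socs3 was 4.36. The transcripts actually used may be shorter than the longest ones.

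**Figure D4:**
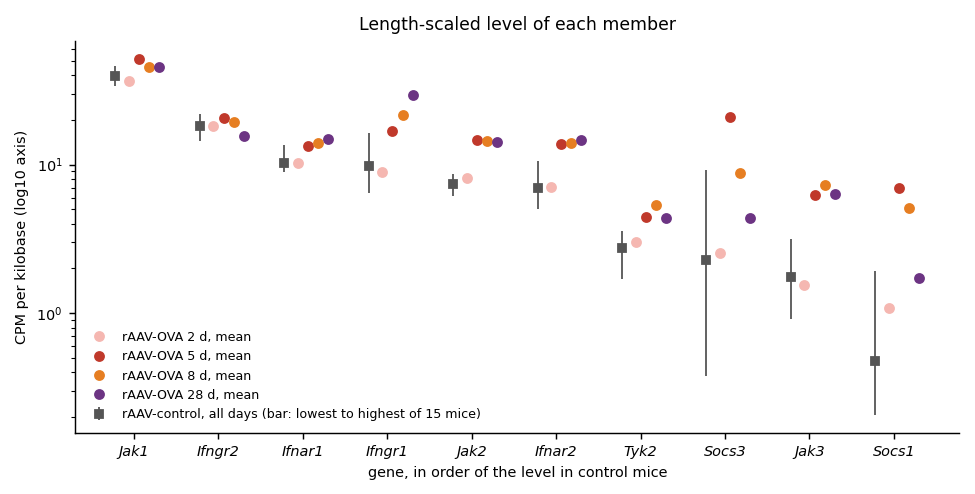
Level of each member in CPM per kilobase (vertical axis, log10 scale), ordered by the mean in control mice, with squares and bars for the mean and the lowest to highest of 15 control mice and circles for rAAV-OVA means by day. Jak1 keeps the highest level on every day, and Socs3 has a mean of 20.9 in rAAV-OVA mice at 5 d, where the controls of that day have 0.984 and the controls of all days 2.27.

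The genes downstream and beside the members are given as counts, where 9.63%, 9.32% and 12.8% of all genes were increased as calls at 5, 8 and 28 d. Of 9 STAT and IRF partners, 9 were increased as calls at 5 d, 9 at 8 d and 8 at 28 d, where Stat2 alone had 0.57 ± 0.313 (edgeR FDR of 0.163). Without covariates 6 were called at 8 d. The median Log2FC of the list was 1.98 at 5 d. Stat4, which relays interleukin-12, had 3.71 ± 0.631 and Irf1, an interferon-induced activator, 3.6 ± 0.524 at 5 d.

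The other 6 SOCS family genes (Cish, Socs2, Socs4, Socs5, Socs6 and Socs7) included 0 calls at 5 d by edgeR, where 4 genes had an unadjusted p under 0.05 and 1 was called as increased without covariates. At 8 d Cish, a target of STAT5, was increased with 1.32 ± 0.338 (FDR of 0.00915), and at 28 d there were 0 calls, where 4 genes had an unadjusted p under 0.05 and 1 was called as increased without covariates. The list's median Log2FC at 5 d was 0.30. Of 11 other inhibitors of the pathway, 4 were increased at 5 d, 3 at 8 d and 2 at 28 d, the last near the share of all genes on that day (12.8%). Without covariates 4 were called at 28 d. Ptprc, the leukocyte phosphatase CD45, had 3.11 ± 0.611, Usp18, which blocks IFNAR2, 2.88 ± 0.653 and Ptpn6, the phosphatase SHP-1, 2.38 ± 0.522 at 5 d. Ptprc and Ptpn6 are expressed mainly by blood and immune cells, whose markers moved with the groups as given above.

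Other receptor chains that signal through JAKs were tested for 23 of 25 listed genes. Increases were called for 13 at 5 d, 14 at 8 d and 15 at 28 d, with a median Log2FC of 1.29 at 5 d. Il2rb, Il2ra and Il2rg, the chains of the interleukin-2 receptor, had 5.46 ± 0.610, 5.07 ± 0.579 and 4.11 ± 0.690 at 5 d. Epor, the erythropoietin receptor, was the 1 listed gene that decreased, by 0.80 at 5 d (-0.80 ± 0.252, FDR of 0.0196).

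Of 14 ligands that use these receptors and kinases, 3 were in the table, and Ifng, Ifnb1 and the listed type I interferon genes were not analysed here. Lif, a ligand of the gp130 family, had 3.59 ± 0.421 at 5 d and 1.74 ± 0.439 at 8 d. At 28 d Cntf (1.92 ± 0.543) and Il15 (1.04 ± 0.369) were called.

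The genes most like each member were found by Pearson's r of log2 CPM over the 31 mice, which share the vector effect, library and depth, and again after the mean of each of the 8 groups had been removed. Socs1 was most like Irf1 (r = 0.976), Samhd1 (0.970) and Parp10 (0.970), and Irf1 remained first after centring (0.936), followed by Gm4841 and Gbp7. Socs3 was most like Il1rn (0.977), Hcar2 and Acod1, and after centring Tgm2 (0.926), Il1rn and Icam1. Jak3 was most like Ccdc88b (0.985), Ppp1r18 and Ptafr, with Ccdc88b, Lsp1 and Cnn2 all at 0.962 after centring.

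Ifngr1 was most like Il10rb (0.971), Rcsd1 and Dnase2a, and after centring Shc1 (0.945), P2rx4 and Dnase2a. Ifnar2 was most like Mob1a (0.989), Ppp1r18 and Mfsd1, and after centring Cnn2 (0.975), Mob1a and Ppp1r18. Ifnar1 was most like Flii (0.953), Lig1 and Tcof1, and after centring Flii (0.922), Tcof1 and Flna. Ifngr2 had the weakest likeness, with Rab3d (0.801), Smim36 and Cyb5r1, and after centring Neurod6 (0.838), Cck and Gyg, the first 2 of which are genes of neurons.

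Jak2 was most like Ddx21 (0.969), Tmpo and Mcm4, and after centring Resf1 (0.928), Ddx21 and Usp8. Tyk2 was most like Flt3l (0.968), Ap1g2 and Shkbp1, and after centring Ap1g2 (0.941), Arhgef1 and Flt3l. Jak1 was most like Eif3c (0.918), Kpnb1 and Iars, and after centring Iars (0.910), Pphln1 and Prep. Among the members themselves, after centring, Ifnar2 and Jak3 had r = 0.949, Jak3 and Tyk2 0.920 and Socs1 and Socs3 0.721. Ifngr1 and Ifngr2 had 0.504 after centring and 0.141 over the uncentred values.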

How the data were processed

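Bulk RNA-seq was analysed for 31 left hippocampi (TruSeq mRNA libraries, Illumina NovaSeq, paired-end). The authors trimmed reads with fastp, quantified them with Salmon 1.8.0 against GENCODE M29 with a genome decoy and GC correction, summed transcripts to genes with tximeta and kept genes that reached 15 counts in 15 or more mice. The deposited values are estimated counts in whole numbers, without normalisation, and 0 columns of values were left unused. A second deposited table was identical (0 cells differ). Sequences and coordinates are RefSeq's in GRCm38.p6, which is not the build behind GENCODE M29, so no coordinate was joined to the counts.

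The counts were fitted as deposited with edgeR 4.0.16 in R 4.3.3 (TMM, robust quasi-likelihood F-test), in a model of 8 groups and 2 surrogate variables from sva 3.50.0 over all 15648 genes. CPM used TMM-scaled totals. Log2 CPM for the likeness used a prior count of 2. Chain ratios were tested with scipy 1.17.1. The scripts were tested on simulated data. Of 45 pairs of mice within groups, the closest differed with a chi-square of 11.7 per degree of freedom, so none was counted as a duplicate. The members and the gene lists were chosen with earlier results of these data known. The genes named are all members, the 3 largest calls at 5 d and up to 3 decreased calls of each list, and the 3 genes most like each member, and other genes named from the lists (Stat2, Cish, Lif, Cntf and Il15) were chosen after their values were seen. A gene that this rule names is not reported here.

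Alternatives were DESeq2 1.42.0 (Wald test, with and without ashr 2.2.63, and its size factors), limma 3.58.1 voom, no covariates, batch as a covariate with and without surrogate variables, 15 counts in every mouse, no Log2FC limit, single batches, single days and each mouse left out.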

Additional observations from a re-analysis of the deposited data

Results flagged for a closer look

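A mouse stood far from its group in 2 of 70 groups of 4 mice examined over the 10 members, where chance gives about 1 in 20. Socs3 in BEC-B542 (rAAV-OVA, 2 d) was 14.5 CPM, and the nearest of its group had 4.42 CPM. Ifnar1 in D706 (rAAV-control, 28 d) was 35.4 CPM, and the nearest had 38.9 CPM.

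The response differed between 5 d and 2 d for 5 members by edgeR's test of the difference itself, with a Log2FC of 1.04 for Ifnar2, 0.98 for Jak2, 1.97 for Jak3, 2.70 for Socs1 and 4.91 for Socs3. All 5 d mice belonged to batch 1 and 4 of the 8 mice at 2 d to batch 2, and in batch 1 alone these values were 1.4, 1.3, 2.67, 3.77 and 6.96.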

How the results depend on the processing

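No paired analysis was possible because no mouse of one group carries the same label as a mouse of another. The members called at 5 d numbered 5 with the settings reported and 4 to 7 under each alternative, those at 8 d 7 and, with the mice of that day alone, 0, and those at 28 d 6 and, in batch 2 alone, 0. Leaving out each mouse in turn gave 4 to 7 at 5 d, 3 to 7 at 8 d (3 without control D722) and 5 to 8 at 28 d, and 0 at 2 d throughout. The members with a change in response from 2 to 5 d were 5 as reported, 8 in batch 1 alone and 5 to 7 without single mice. From 5 to 28 d they were 0 as reported, 2 with DESeq2's Wald test, 1 with 15 counts in every mouse, 1 without D720, D844 and BEC-B542, and 0 to 1 without single mice, with Ifngr1 called in 9 of 31 such fits. From 5 to 8 d and from 8 to 28 d they were 0 without any single mouse. Within controls, the 5 d count of 1 became 0 with limma voom, without covariates and with the batch label (0 to 1 without single mice). The 8 d count of 0 became 1 with DESeq2's Wald test, with the batch label and surrogate variables together and without the 3 mice (0 to 1 without single mice), and the 28 d count of 1 became 0 with limma voom and in batch 2 alone and 3 without the 3 mice (1 to 2 without single mice). The cause was not tested.

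Ifngr2, Jak1 and Jak2 changed sign where their values were near 0. Ifngr2 at 2 d was 0.020 without covariates, with the batch label and in batch 1 alone and with mice of that day only, 0.016 with the batch label and surrogate variables, 0.032 with 15 counts in every mouse, 0.026 in batch 2 alone and 0.034 without the 3 mice. At 5 d it was 0.015 without covariates and with the batch label, 0.028 in batch 1 alone and 0.046 with mice of that day only, and at 8 d 0.037, 0.037, 0.034 and 0.065 in the same order. At 28 d it was 0.24 in batch 1 alone and 0.00031 with mice of that day only. Without single mice Ifngr2 ran from -0.082 to 0.075 at 2 d, from -0.23 to 0.0075 at 5 d, from -0.15 to 0.022 at 8 d and from -0.32 to 0.11 at 28 d. At 2 d Jak2 was 0.00065 with limma voom, 0.00022 with 15 counts in every mouse, 0.11 in batch 2 alone and 0.015 without the 3 mice, and Jak1 was 0.045 in batch 2 alone. Without single mice Jak2 ran from -0.11 to 0.081 and Jak1 from -0.14 to 0.029. Socs3 at 2 d was 0.34 in batch 2 alone.

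The Ifnar2 to Ifnar1 ratio at 2 d ran from -0.14 to 0.016 without single mice, and the other 7 ratio differences kept their direction. Ifnar2 at 5 d lost its call with DESeq2 and ashr shrinkage and without D696 or D851. At 8 d Ifngr1 did without D700 or D722, Tyk2 without BEC-B541 or D722, and Ifnar2 and Socs3 without D722. At 28 d Jak2 did without D696 and Socs3 without BEC-B542, D661 or D851, with limma voom and with the batch label and surrogate variables together, while Ifnar1 and Tyk2 were called without D844 and Tyk2 with the batch label and in batch 1 alone. Without covariates and with the batch label, the other SOCS genes had 1 call in place of 0 at 5 and 28 d, the other inhibitors 4 in place of 2 at 28 d and the ligands 2 in place of 1 at 5 d. Low counts limit Socs1, which had 14 counts in its lowest library and was not tested when every mouse had to reach 15 counts.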
